A study of Sus scrofa with 6 samples.

Results

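Decorin (DCN), lumican (LUM) and asporin (ASPN) are small leucine-rich proteoglycans of the connective tissue matrix. They were taken as every probe set whose platform annotation gives exactly 1 of these 3 symbols. That rule found 4 probe sets for 3 genes, among 23999 probe sets tested and 6765 different symbols on the array. DCN (gene ID 396957) had 2 probe sets, called the first and the second here. The annotation lists a curated RefSeq mRNA for the first and an expressed sequence tag for the second. LUM (gene ID 100152607) and ASPN (gene ID 100511749) had 1 each.

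Total RNA of 6 pig cell samples was hybridised to the Affymetrix Pig Genome Array, 1 array per sample. The 4 induced pluripotent stem (iPS) cell lines were PS24, positive for the surface glycans SSEA1, SSEA3 and SSEA4; 30AC5, positive for SSEA1; and iPF4-2 and iPSCs-w, both positive for SSEA3 and SSEA4. The 2 somatic samples were pig embryo fibroblasts (PEF) and pig amniotic fluid stem cells (PAFSC). All cells were grown in DMEM with fetal bovine serum, and the iPS lines on mitotically inactive mouse embryonic fibroblast feeders. The labels name no step that removed the feeders before RNA extraction, and they do not say from which cells, or with which factors, each line was made. Some lines came from other laboratories, and which ones is not stated. The comparison of lines with different marker expression and plasticity was the stated purpose.

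Small leucine-rich proteoglycans are secreted core proteins built of leucine-rich repeats. Decorin and lumican bind collagen fibrils and set their diameter and spacing, and decorin also holds TGF-beta and binds growth factor receptors. Asporin is a close relative of decorin that also binds collagen and TGF-beta family ligands. All are typical products of fibroblasts and other mesenchymal cells. In the RefSeq genes of assembly Sscrofa11.1, LUM is the next protein-coding gene after DCN, followed by the family members KERA and EPYC. ASPN lies on another chromosome, between OMD, also of the family, and ECM2, a related matrix protein. These 4 neighbours had no probe set under their symbols and were not analysed here.

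All values are on the log2 scale unless given as a fold or a percentage, and each probe set has its own unstated baseline at 0. Arrays can therefore be compared within a probe set, levels of different genes cannot, and 0 does not mean absence. The PAFSC array stood apart, with an SD of 2.01 over its probe sets, against 0.610 to 0.729 in the iPS lines and 0.808 in PEF, and with a median of 0.70. The median of the lines minus both somatic samples over all probe sets was -0.34, and minus PEF alone 0.13. Results that rest on PAFSC are therefore given with and without it. The fibroblast label of PEF was checked on 18 measured fibroblast and mesenchyme markers: their median was 2.69 in PEF, against 1.66 in PAFSC. No list of striated muscle genes was examined. Some of these, seen afterwards, were also high in PEF: ACTC1, MYL1 and MYF5 stood 7.07, 4.33 and 2.72 above the median of the lines. The check therefore does not show that PEF held fibroblasts only. COL3A1, a fibrillar collagen, was not higher in PEF than in the lines, with a lines minus PEF difference of 0.29.

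The 3 genes did not behave alike. ASPN was high in PEF and near its baseline on the other 5 arrays. LUM was high in PEF and, to a lesser degree, in the iPS line iPF4-2. DCN by its first probe set was high in both somatic samples and, again to a lesser degree, in iPF4-2. DCN by its second probe set was high in PAFSC only.

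**Figure D1:**
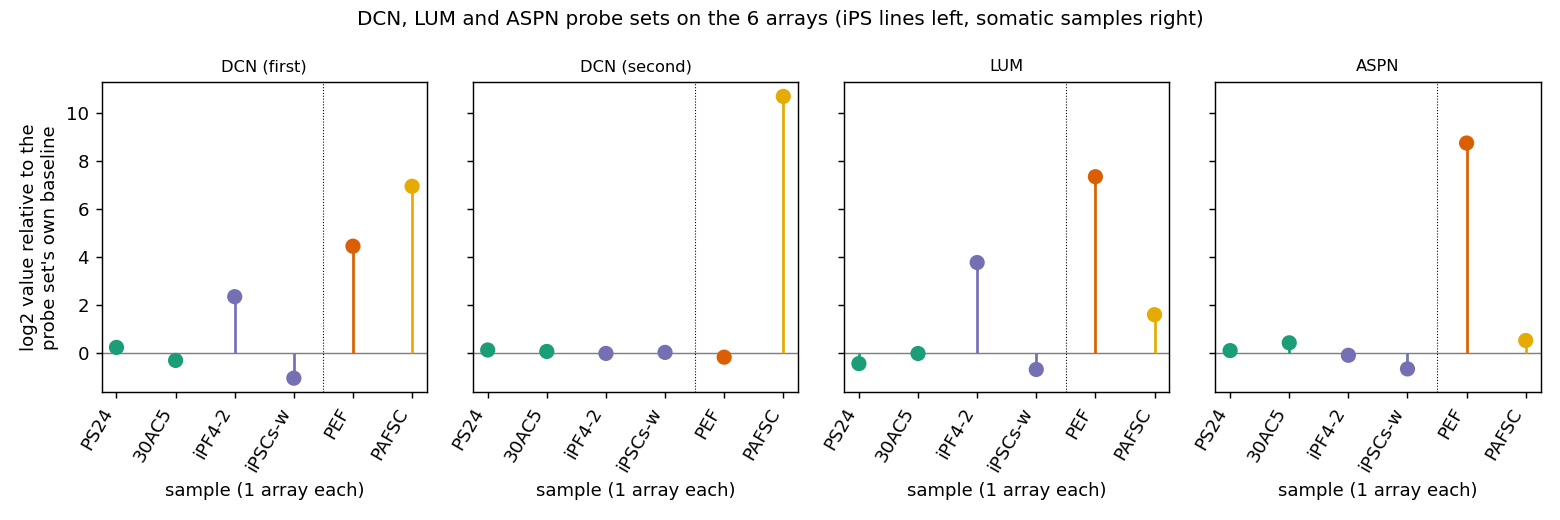
Log2 value (y axis, relative to each probe set's own baseline) of the 4 probe sets on the 6 arrays (x axis); 1 point is 1 array, with the SSEA1-labelled (green) and SSEA3/SSEA4-only (purple) lines left of the dotted line and PEF (orange) and PAFSC (yellow) right of it. ASPN stands between -0.66 and 0.42 in the lines, against 8.74 in PEF and 0.52 in PAFSC, and LUM and the first DCN probe set stand above the other lines in iPF4-2, at 3.77 and 2.34.

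ASPN was 0.10 in PS24 and 0.42 in 30AC5, then -0.10 in iPF4-2 and -0.66 in iPSCs-w, against 8.74 in PEF and 0.52 in PAFSC. The lines and PAFSC lay together, and PEF lay far above them. PEF exceeded the highest of the other 5 arrays by 8.23 on the log2 scale, the largest such gap of the 23999 probe sets. On the linear scale the lines held 0.147% to 0.312% of the PEF signal.

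Set against PEF, the lines averaged -0.06 ± 0.46 (SD, n = 4) for ASPN, against 8.74 in the single PEF sample. ASPN fell by 8.81 (SE 0.45, limma adjusted p = 0.012, lower in 4 of 4 lines). In that comparison limma called 0.567% of all probe sets, 0.513% lower and 0.0542% higher, 12.3% had an unadjusted p under 0.05, and in 19.1% all 4 lines lay below PEF. The lone PEF sample has no spread of its own and was assumed to vary like the lines. The call was lost after quantile normalization (limma adjusted p = 0.0804) and without PS24 (limma adjusted p = 0.0779), 30AC5 (limma adjusted p = 0.0631) or iPSCs-w (limma adjusted p = 0.061). Against both somatic samples, which averaged 4.63, the difference was -4.69 (SE 1.82, limma adjusted p = 0.338). All 4 lines lay below both somatic samples, as did 9.99% of all probe sets, but the margin between 30AC5 at 0.42 and PAFSC at 0.52 was small. That margin turned with the scaling: after centring each array on its median, 30AC5 was 0.42 and PAFSC -0.18.

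LUM was -0.44 in PS24 and -0.02 in 30AC5, then 3.77 in iPF4-2 and -0.69 in iPSCs-w, against 7.34 in PEF and 1.59 in PAFSC. The iPF4-2 line lay above PAFSC and the other 3 lines, so the lines and the somatic samples overlapped. In linear terms iPF4-2 was 11.9-fold lower than PEF and 13.8-fold higher than 30AC5, the next line. In the other 3 lines LUM was 165-fold to 261-fold lower than in PEF.

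The lines averaged 0.65 ± 2.09 (SD, n = 4) for LUM, a difference of -6.69 from PEF (SE 1.77, limma adjusted p = 0.240, lower in 4 of 4 lines). Most of that SD came from 1 line, iPF4-2: the other 3 averaged -0.39 ± 0.34 (SD, n = 3), a difference of -7.73 from PEF. That line was left out because it stood apart, so this difference is a description. Against both somatic samples, at a mean of 4.47, the difference was -3.82 (SE 1.69, limma adjusted p = 0.369). In this comparison limma called 0.025% of all probe sets (0.0167% lower and 0.00833% higher), and 13.7% had an unadjusted p under 0.05.

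DCN by its first probe set was 0.23 in PS24 and -0.31 in 30AC5, then 2.34 in iPF4-2 and -1.05 in iPSCs-w, against 4.45 in PEF and 6.94 in PAFSC. All 4 lines lay below both somatic samples, and iPF4-2 lay between the other lines and PEF. In linear terms iPF4-2 held 23.3% of the PEF signal, and the other lines held 2.21% to 5.38%. The lines averaged 0.30 ± 1.46 (SD, n = 4), which differed from the somatic mean of 5.69 by -5.39 (SE 1.02, limma adjusted p = 0.151) and from PEF by -4.14 (SE 1.24, limma adjusted p = 0.290). Both missed the threshold. Without PEF, against PAFSC alone, the difference was -6.64 (SE 1.24, limma adjusted p = 0.00722), but there limma called 14303 of the 23999 probe sets.

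DCN by its second probe set was 0.12 in PS24 and 0.06 in 30AC5, then -0.02 in iPF4-2 and 0.02 in iPSCs-w, against -0.17 in PEF and 10.69 in PAFSC. PAFSC alone was high, and PEF was the lowest of the 6 arrays. The gap of 10.56 from PAFSC to the next array was the largest of all probe sets for PAFSC. The 4 lines spanned 0.14 log2 units, with an SD of 0.06. The difference from PEF was 0.22 (SE 0.24, 95% interval -0.39 to 0.83, limma adjusted p = 0.772).

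The probe sets of DCN therefore gave unlike pictures of PEF. Their PEF minus PAFSC differences, -2.50 and -10.86, lay 8.36 log2 units apart. Of 2261 genes with more than 1 probe set, 16 had a spread at least as wide, which is 0.708%, and the median spread was 1.91. The probe sequences were not used here, so which parts of the DCN transcript each set reads was not tested. Statements on DCN in PEF and iPF4-2 rest on the first probe set.

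**Figure D2:**
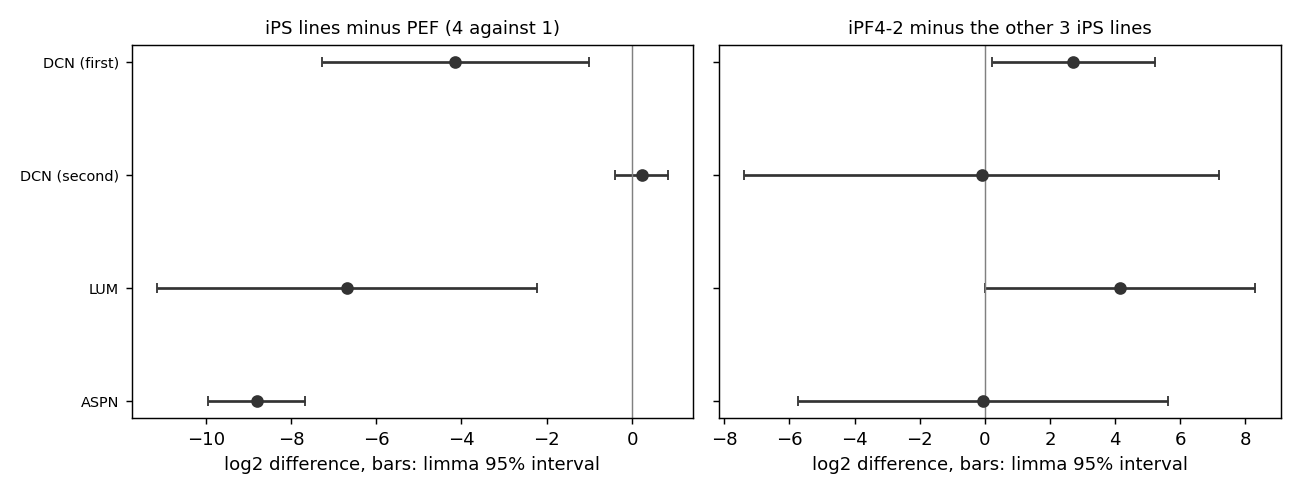
Log2 difference (x axis) of the 4 probe sets (y axis), for the iPS lines minus PEF on the left and iPF4-2 minus the other 3 lines on the right; points are limma estimates and bars their 95% intervals without adjustment. The ASPN interval against PEF runs from -9.94 to -7.67, while the iPF4-2 intervals for LUM and the first DCN probe set reach from just above 0 to 8.30 and 5.22.

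PEF and PAFSC were compared with no test, since each is 1 sample. PEF minus PAFSC was 8.23 for ASPN and 5.75 for LUM, which makes PEF 299-fold and 53.7-fold higher in linear terms. For DCN it was -2.50 by the first probe set, so PAFSC was 5.64-fold higher, and -10.86 by the second. Over all probe sets this difference had a median of -0.72 and an SD of 2.09. Of all probe sets 0.0458% had a difference at least as high as ASPN and 0.896% one at least as high as LUM, while 8.19% had one at least as low as the first DCN probe set. The order of PEF and PAFSC did not change after quantile normalization or median centring. PEF minus PAFSC was then 7.62 and 8.98 for ASPN, 6.33 and 6.50 for LUM, and -2.22 and -1.74 for the first DCN probe set.

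**Figure D3:**
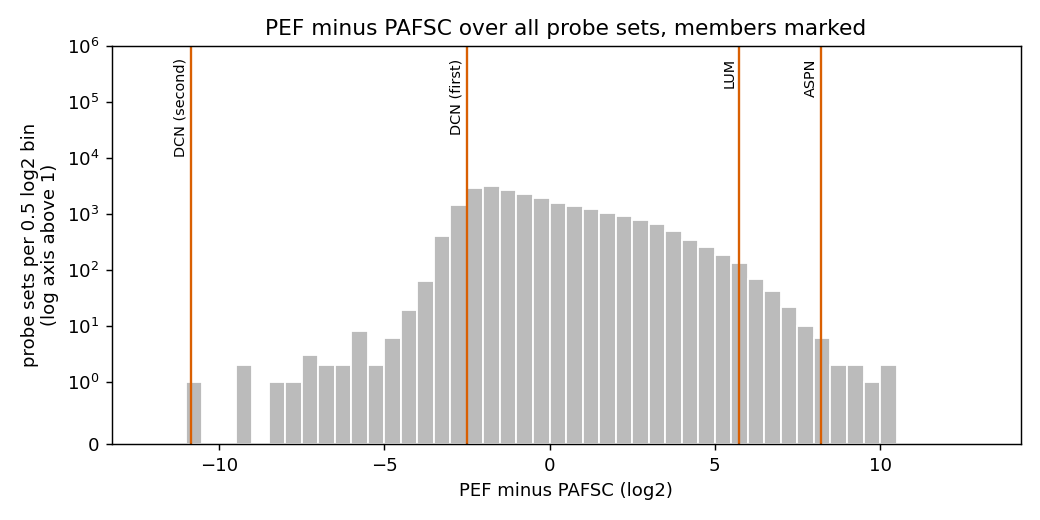
Number of probe sets (y axis, log scale above 1) by their PEF minus PAFSC difference in log2 units (x axis, bins of 0.5), with the 4 member probe sets as vertical lines. The second DCN probe set, at -10.86, is the lowest of all, LUM and ASPN lie in the upper tail, and the first DCN probe set, at -2.50, lies within the bulk.

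The iPS line iPF4-2 was the one that held LUM and DCN above the other lines. LUM was 3.77 in iPF4-2, against -0.39 ± 0.34 (SD, n = 3) in the other lines, a difference of 4.15 (SE 1.81, 95% interval 0.01 to 8.30, unadjusted p = 0.0497 and adjusted p = 1 in limma). The first DCN probe set was 2.34, against -0.38 ± 0.64 (SD, n = 3), a difference of 2.72 (SE 1.09, 95% interval 0.22 to 5.22, unadjusted p = 0.0365 and adjusted p = 1 in limma). ASPN did not share this: it was -0.10 in iPF4-2, against -0.05 ± 0.56 (SD, n = 3), a difference of -0.05 (SE 2.48, 95% interval -5.73 to 5.63). After adjustment limma called 0 probe sets in this comparison (0% of all, with 220, or 0.917%, at an unadjusted p under 0.05), so neither gene passed. The SE of this fit includes the difference between PEF and PAFSC. From the 4 iPS arrays alone the SE was 0.39 for LUM (limma adjusted p = 0.416) and 0.58 for DCN (limma adjusted p = 1).

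In size the LUM gap was rare. Over all 23999 probe sets, 19 (0.0792%) had iPF4-2 at least 3.79 log2 units above the highest of the other lines, as LUM did, and 97 (0.404%) at least 2.11, as the first DCN probe set did. Of the 840 probe sets in which PEF exceeded the median of the lines by at least 2, iPF4-2 was the highest line in 27.4%, and at least 2 above the next line in 4.29%. A gene was counted as kept in a line if it lay within 1 log2 unit of PEF or above it. By that rule iPF4-2 kept 4.76% of the 840, 30AC5 11%, PS24 5.12% and iPSCs-w 2.98%. Neither LUM, at -3.58 relative to PEF, nor the first DCN probe set, at -2.10, was kept in iPF4-2.

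**Figure D4:**
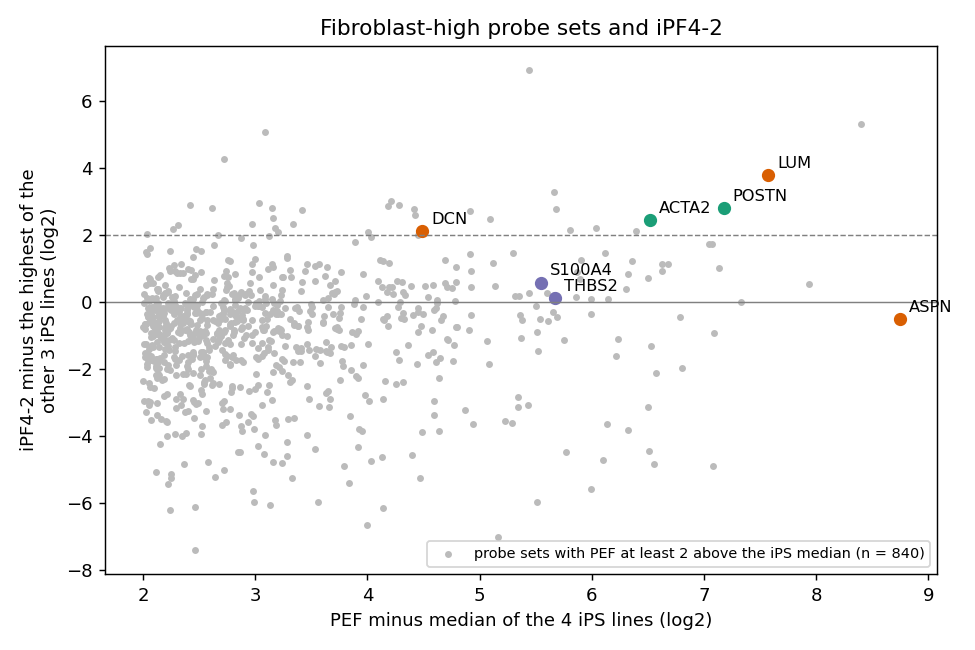
Each point is 1 of the 840 probe sets in which PEF exceeded the median of the 4 lines by at least 2 log2 units (x axis: that excess). The y axis is iPF4-2 minus the highest of the other 3 lines (log2). Members are orange, POSTN and ACTA2 green, and S100A4 and THBS2 purple. The fibroblast markers with another line higher, THY1, PDGFRB, PRRX1, TWIST2, FBN1, LOXL1 and SPARC, are among the unmarked grey points. LUM, the first DCN probe set, POSTN and ACTA2 lie above the dashed line at 2, while ASPN, S100A4 and THBS2 lie near 0.

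Markers of fibroblasts were set beside this result, each gene read by its probe set with the widest range. Of the 13 markers with PEF at least 2 above the median of the lines, iPF4-2 was the highest line in 6 and kept 0. Among these 6, POSTN, the matricellular protein periostin, was 3.01 in iPF4-2, against at most 0.20 in the other lines and 7.11 in PEF, and it was the only one at least 2 above the next line. In the other POSTN probe set PEF was not that far above the median of the lines. FAP, a surface protease of activated fibroblasts, was -0.37 in iPF4-2, against at most -1.53 in the other lines and 2.65 in PEF. The other 4, S100A4, LOX, MFAP2 and THBS2, stood 0.13 to 0.58 above the next line. In the other 7, THY1, PDGFRB, PRRX1, TWIST2, FBN1, LOXL1 and SPARC, another line was higher, and iPF4-2 was 0.40 to 3.14 log2 units below it. THY1, a surface glycoprotein of fibroblasts, was -0.06 in iPF4-2 and 5.75 in PEF. Of 8 measured smooth muscle genes, 6 were that high in PEF, and iPF4-2 was the highest line in 1, ACTA2, smooth muscle actin, at -0.33, against at most -2.77 in the other lines and 2.72 in PEF. The median of the 18 fibroblast markers, 2 of them also among the collagens, was -0.62 in PS24 and -0.31 in 30AC5, then -0.10 in iPF4-2 and -1.16 in iPSCs-w.

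Epithelial and pluripotency markers were set beside it too. Both SSEA3/SSEA4-only lines, iPF4-2 and iPSCs-w, lay above both SSEA1-labelled lines in 10 of 13 measured epithelial and 4 of 4 measured pluripotency genes, beside 20.2% of all probe sets. EPCAM, an epithelial adhesion molecule, was 3.18 in iPF4-2 and 4.98 in iPSCs-w, then -0.16 in PS24 and -1.03 in 30AC5. The exceptions were the junction genes OCLN, CLDN7 and TJP1, and OCLN was 0.47 in iPF4-2 and 2.37 in iPSCs-w, then 1.51 in PS24 and 2.55 in 30AC5. The part of fibroblasts or feeder cells in the LUM and DCN values of iPF4-2 was not tested, and in bulk RNA a few cells with much of a transcript and many cells with little cannot be told apart. The 5' minus 3' signal of 2 control genes, a sign of RNA quality, was 0.03 in iPF4-2 relative to the mean of all arrays and ran from -0.43 in PS24 to 0.29 in 30AC5.

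Between the marker classes the genes were not shown to differ. The SSEA1-labelled lines PS24 and 30AC5 averaged -0.23 for LUM, against 1.54 in the SSEA3/SSEA4-only lines, a difference of -1.77 (SE 1.95, 95% interval -6.29 to 2.75). For the first DCN probe set they averaged -0.04, against 0.65, a difference of -0.69 (SE 1.23, 95% interval -3.55 to 2.18), and for ASPN 0.26, against -0.38, a difference of 0.64 (SE 2.18, 95% interval -4.43 to 5.71). The SE again includes the difference between PEF and PAFSC: from the 4 iPS arrays alone it was 1.44 for LUM, 1.11 for the first DCN probe set and 0.32 for ASPN (limma adjusted p = 0.752, 0.893 and 0.565). Without iPF4-2 the direction turned for LUM, to 0.45, and for the first DCN probe set, to 1.01. The limma adjusted p over all 6 arrays was 1 for each, with 0% of all probe sets called and 681, or 2.84%, at an unadjusted p under 0.05. For LUM and the first DCN probe set iPF4-2 and iPSCs-w, which carry the same label, were the highest and the lowest of the 4 lines. ASPN and the second DCN probe set were higher in both SSEA1-labelled lines than in both others, as were 21% of all probe sets. The lowest line was iPSCs-w for LUM, ASPN and the first DCN probe set. Set against the other 3 lines, iPSCs-w differed by -1.79 for LUM (95% interval -7.05 to 3.47), -1.81 for the first DCN probe set (95% interval -4.83 to 1.21) and -0.81 for ASPN (95% interval -6.62 to 5.01), and limma called 0 probe sets (351, or 1.46%, at an unadjusted p under 0.05). PS24 and 30AC5 differed from the other lines by between -1.46 and 0.64 over the members, again with 0 called (225 and 261, or 0.938% and 1.09%, at an unadjusted p under 0.05).

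Of 15 other listed small leucine-rich proteoglycans 4 were measured. BGN, the close decorin relative biglycan, was 0.47 in PS24 and -0.71 in 30AC5, then -0.38 in iPF4-2 and -0.95 in iPSCs-w, against 4.03 in PEF and 1.83 in PAFSC. All 4 lines lay below both somatic samples, and iPF4-2 did not stand out. The difference of BGN was -3.32 (SE 0.71, limma adjusted p = 0.183), and from PEF alone -4.42 (SE 0.57, limma adjusted p = 0.0571). PRELP, which anchors basement membranes to connective tissue, had lines between -0.70 and 0.04, against 1.70 in PEF and 1.76 in PAFSC. OPTC, the eye proteoglycan opticin, was near its baseline except for 2.15 in PAFSC, and TSKU, tsukushi, differed by -0.27, and by -0.66 from PEF alone. Against both somatic samples the lines were lower in the mean for 4 of 4 genes, beside 14606 of all 23999 probe sets. The median difference was -1.50, beside -0.34 over all probe sets. Limma called 0 of 4. Against PEF alone the median difference was -1.26, beside 0.13 over all probe sets, and OPTC differed by only -0.01.

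Of the collagens and other fibril proteins to which these proteoglycans bind 15 of 23 were measured. The lines were lower than the somatic samples in the mean for 15 of 15 (median -2.22), and lower than PEF for 13 of 15 (median -1.91, beside 0.13 over all probe sets). Of all 23999 probe sets, 14606 were lower than the somatic samples in the mean and 9255 lower than PEF. Against PEF limma called 2 lower: DPT, dermatopontin, a decorin-binding matrix protein, with a difference of -4.56 (SE 0.26, limma adjusted p = 0.0129), and COL15A1, a basement membrane collagen, with one of -7.04 (SE 0.74, limma adjusted p = 0.0351), beside 0.513% of all probe sets called lower. After quantile normalization, and without PS24, 30AC5 or iPSCs-w, limma called 0 probe sets against PEF, so both calls were lost in each. TNC, the matrix protein tenascin, differed from both somatic samples by -4.14 (SE 1.07), and COL6A3 and COL5A1, chains of collagens VI and V, by -3.72 (SE 0.88) and -3.61 (SE 0.91). From PEF alone TNC, COL6A3 and COL5A1 differed by -5.90, -5.19 and -4.89. Against both somatic samples limma called 0 of 15, with an adjusted p of at least 0.175. Of the 6 in which PEF exceeded the median of the lines by at least 2, iPF4-2 was the highest line in 1, TNC at 1.36. These counts used the widest-range probe set of each gene. Other probe sets of FN1 and COL1A2 also had PEF that far above the median, by 4.71 and 2.52. There iPF4-2 was 0.44 and 0.02 above the next line. In another probe set of COL5A1, with PEF 3.14 above the median, iPF4-2 was 1.17 below the highest line.

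**Figure D5:**
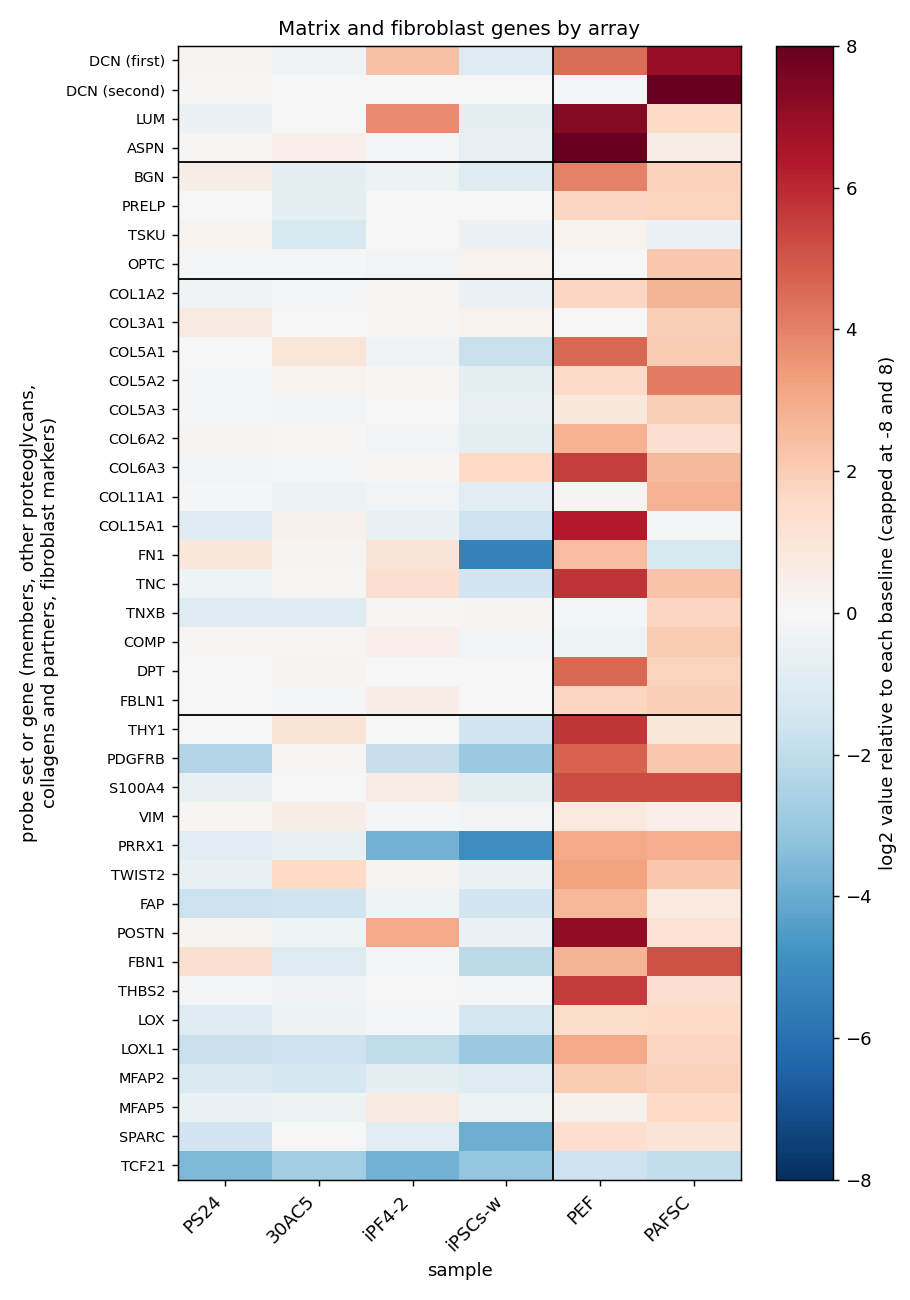
Log2 values relative to each probe set's baseline (colour, capped at -8 and 8) on the 6 arrays (columns, iPS lines left of the vertical line), for the 4 member probe sets, other measured small leucine-rich proteoglycans, collagens and partners, and fibroblast markers (rows, top to bottom). PEF is high for most rows, PAFSC is high for part of them, and iPF4-2 stands out for LUM, the first DCN probe set and POSTN.

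Among growth factors and receptors that bind these proteoglycans 15 of 22 were measured, and limma called 1 against PEF. TGFB3, a ligand held by decorin, was between -0.32 and 0.23 in the lines, against 2.76 in PEF, a difference of -2.79 (SE 0.30, limma adjusted p = 0.037), a call lost after quantile normalization and without PS24, 30AC5 or iPSCs-w. TGFB1 and TGFB2 differed from PEF by -0.11 and -2.41 and failed. TGFB2 was kept in iPSCs-w, at 2.72, against 3.04 in PEF, as was EGFR, a receptor for decorin, at 0.15, against 1.02. TLR4, for which lumican helps to present bacterial ligand, was between -0.22 and 0.32 except for 2.69 in PAFSC. The median difference from both somatic samples was -0.79, with 12 of 15 lower, and from PEF -0.24, with 10 of 15 lower. Of all 23999 probe sets, 14606 were lower than both somatic samples in the mean and 9255 lower than PEF.

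Of the enzymes that build the glycan chains 8 of 22 were measured and limma called 0 in either comparison, with a median difference of -0.43 from both somatic samples and -0.49 from PEF. DSE, which makes the dermatan sulfate of decorin, had -0.16 in PS24 and -0.73 in 30AC5, then -1.93 in iPF4-2 and -2.75 in iPSCs-w, against 2.45 in PEF and -3.83 in PAFSC. It was thus lower than PEF in each line, also in iPF4-2. Of the listed proteases 11 of 15 were measured, with a median difference of -1.40 from both somatic samples and -0.40 from PEF. Limma called MMP1, a collagenase, lower than PEF, with a difference of -2.72 (SE 0.25, limma adjusted p = 0.0298), a call lost in the same 4 alternatives, and called 0 of 11 against both somatic samples. MMP14, a membrane-bound matrix protease, differed from both somatic samples by -2.57 (SE 0.54). BMP1, which trims procollagen and proteoglycan precursors, differed by -3.01 (SE 0.74) and from PEF alone by -1.73 (SE 0.49), with 3.66 in PAFSC.

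Genes were then ranked by the likeness of their profile to each member, as Pearson's r over the 6 arrays among 4622 genes with a range of at least 2. Over 6 arrays, 2 of which stand far from the rest, a high r says little, and it is given as a description. For LUM the 5 most alike were POSTN (r = 0.989), C1H14orf37, ANTXR2, PTGS2 and ANGPT1 (r = 0.973), and 11 genes had an r over 0.95. ANTXR2, a receptor for collagen VI, was 0.10 in iPF4-2, against at most -1.21 in the other lines, 1.94 in PEF and -0.16 in PAFSC. PTGS2, the inducible prostaglandin synthase, was 1.26 in iPF4-2, against at most -1.22 in the other lines, 3.72 in PEF and 0.14 in PAFSC. These genes shared with LUM a value in iPF4-2 between the other lines and PEF, which a ranking by likeness to LUM favours.

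For ASPN the most alike were COL15A1 (r = 0.990), DKK2, MYC, THBS1 and SCG2 (r = 0.980), each highest in PEF. DKK2, a secreted Wnt modulator, was 5.63 in PEF and 0.14 in PAFSC, and THBS1, a thrombospondin, 4.45 and 0.56. For the mean of the DCN probe sets they were CFLAR (r = 0.997), SHAS2, SLC6A4, MYH9 and CCL8 (r = 0.995), but 484 genes had an r over 0.95. PAFSC sets that profile. The first DCN probe set alone had 34 such genes, among its 5 most alike MMP14 (r = 0.986), and the second had 1142. FGF7, a growth factor of mesenchymal cells, was among the 5 most alike the second, at -0.06 in PEF and 8.12 in PAFSC.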

How the data were processed

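The authors deposited log2 values of 24123 probe sets for the 6 arrays; per the labels' protocols, biotin-labelled cRNA was hybridised. The software, background correction, normalization and baseline were not given in the sources used here. In 18.4% of the probe sets tested, 2 arrays held exactly opposite values (tolerance 1e-05), and the median over the 6 arrays was 0 in 3.48%, so the baseline is not the median of these 6 arrays alone. Signal over background and any scaling between arrays stay unknown.

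The 124 array controls were left out. Of the remaining 23999 probe sets 10069 had 1 symbol, 198 several and 13732 none. Differences were fitted with limma 3.58.1 in R 4.3.3 (lmFit and eBayes, two-sided tests, all probe sets adjusted together by Benjamini-Hochberg, called at 0.05), after tests on simulated data, with 4 residual degrees of freedom for iPS against somatic and 3 for the other fits. The labels name no separate cultures of a line, so p-values rest on the spread between these samples, which may be technical, and the number of arrays limits the precision. Members, lists and comparisons were chosen with earlier results of these data known. Lists used 1 probe set per gene, that with the widest range. Named were every member probe set, the 5 genes most alike by Pearson's r, and list genes, of which up to 4 with the largest difference from somatic were fixed by rule; other list genes were chosen after their values were seen. Alternatives were quantile normalization, median centring, leaving out the 40% of probe sets with the smallest range, eBayes with a trend or robust, only the 4 iPS arrays, Spearman correlation, averaging the probe sets of a gene, and leaving out each sample.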

Additional observations from a re-analysis of the deposited data

Results flagged for a closer look

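LUM in iPF4-2 lay far from the other lines. The gap from iPF4-2 at 3.77 to 30AC5 at -0.02 was 0.851 of the whole range of the 4 lines, above the 95% critical value of Dixon's test for 4 values. By construction chance passes this value in about 5% of groups, and 4 probe sets were examined. The same ratio for iPF4-2 was 0.623 in the first DCN probe set, below the critical value.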

How the results depend on the processing

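For iPS against somatic limma called 6 probe sets; it called 1 after median centring, 2 with a trend, 522 with the low-range probe sets left out, and 0 to 14303 with 1 sample left out, the highest without PEF and 136 without PAFSC. With low-range probe sets left out, all members passed: DCN at -5.39 (first) and -5.21 (second), LUM at -3.82 and ASPN at -4.69. Each had the same SE of 0.95, while the differences were those of the main fit. There the SEs were 1.02, 2.35, 1.69 and 1.82 in that order. These passes therefore rest on a shared SE and not on the spread of each probe set. The second DCN probe set passed although PEF was its lowest array. A filter on the range also favours probe sets that differ between arrays. With 1 sample left out, the first DCN probe set ran from -6.64 to -4.14, the second from -10.64 without PEF to 0.22 without PAFSC, LUM from -6.69 to -0.94, and ASPN from -8.81 without PAFSC to -0.58 without PEF. For iPS against PEF the count of 136 was 0 after quantile normalization, where ASPN was -7.77, and 0 to 19 with 1 line left out; ASPN then ran from -8.97 to -8.60 and LUM from -7.73 to -6.24. For SSEA1-labelled against SSEA3/SSEA4-only lines the count of 0 was 90 after quantile normalization, 61 with low-range probe sets left out, 4 from the iPS arrays alone, and 0 to 4 with 1 sample left out. With low-range probe sets left out it was 1 for iPF4-2 and 4 for iPSCs-w against the other lines. With 1 sample left out, the class difference of LUM ran from -4.00 to 0.45 and that of the first DCN probe set from -2.39 to 1.01, both turning without iPF4-2. Small line differences changed sign too. PS24 against the other lines ran from -0.79 to 0.91 for the first DCN probe set, which was 0.11 after quantile normalization, and from -0.065 to 0.48 for ASPN. 30AC5 ran from -1.60 to 0.10 for the first DCN probe set, from -0.011 to 0.060 for the second and from -1.68 to 0.54 for LUM. iPF4-2 ran from -0.36 to 0.19 for ASPN, and iPSCs-w from -0.070 to 0.0014 for the second DCN probe set. The causes were not tested. No member passed the threshold in the class and line comparisons under these alternatives. Of the 5 genes most like LUM, 3 were among the 5 by Spearman correlation and 2 without PAFSC. For DCN it was 1 and 1, and for ASPN 0 and 0. Tied Spearman values were ordered by gene symbol, which partly set the Spearman counts, so they cannot show how stable the lists are. For LUM places 4 and 5 tied at 0.943, and 29 genes for DCN and 15 for ASPN had a value over 0.95. Without PAFSC the list medians for chondro-osteogenic, endothelial and blood and macrophage genes were positive, at 0.10, 0.10 and 0.03. No paired analysis was possible because each array holds a different line or cell type and the labels name no pairs.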

Other observations

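Among the 840 probe sets high in PEF, iPF4-2 stood at least 2 log2 units above the next line in 36, of which 11 had 1 symbol, for 10 genes. Beside LUM, DCN, POSTN, ACTA2 and PTGS2 they were PKIA, GUCY1B3, NCAM1, ANGPT1 and MEDAG. GUCY1B3 and ANGPT1 each had another probe set among the 840 that did not pass, with iPF4-2 only 0.75 and 0.94 above the next line. NCAM1, a neural and mesenchymal adhesion molecule, passed with both its probe sets there, at 1.33 and 0.92 in iPF4-2, against at most -0.99 and -1.09 in the other lines and 1.63 and 1.12 in PEF. PKIA, an inhibitor of protein kinase A, was 1.44 in iPF4-2, against at most -1.37 in the other lines and 1.24 in PEF. GUCY1B3, a subunit of soluble guanylate cyclase, was 0.87 in iPF4-2, against at most -1.92 in the other lines and 3.65 in PEF. MEDAG, known from fat cell development, was 1.96 in iPF4-2, against at most -0.07 in the other lines and 1.92 in PEF. These genes were chosen after their values were seen, and no test was made.

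Of 8 measured markers of cartilage and bone cells, 1 was at least 2 above the median of the lines in PEF: SPP1, osteopontin, was 0.52, 1.67, -0.18 and -1.29 in PS24, 30AC5, iPF4-2 and iPSCs-w, against 5.26 in PEF and 0.18 in PAFSC. ALPL, alkaline phosphatase, an enzyme of bone and of pluripotent cells, was 0.81, 2.44, 2.42 and 3.06 in these lines, against -2.46 in PEF and -0.81 in PAFSC.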
